A study of Mus musculus with 30 samples.

Results

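Mouse embryonic fibroblasts carrying the CRY2 protein S510L were compared with fibroblasts carrying F428D, at 2 plating densities. The members are the 12 of 30 RNA libraries whose sample titles name S510L or F428D: 3 libraries of S510L and 3 of F428D at low density, and as many at high density. All 12 come from primary Cry2-/- fibroblasts that stably overexpress c-MYC, so neither construct was studied without c-MYC or beside endogenous CRY2. Low density means 150 cells per well collected 14 days after plating, and high density 500 cells per well collected after 11 days, so density and harvest day cannot be told apart. The cells grew in 3% oxygen with 15% serum, and each replicate pooled 2 wells. The labels give each group as biological triplicates and do not say whether the replicates stem from independently derived lines. A difference between the constructs is therefore also one between cell lines, and a p-value here reflects no more than the variation among these samples, which may be technical. The other 18 libraries come from the same cells with D325H, with the wild-type protein (WT) or with the empty vector (EV).

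CRY2 belongs to the negative arm of the circadian clock. With the PERIOD proteins it silences the transcription factors CLOCK and BMAL1 at the E-box, a short DNA motif that MYC also binds, and the clock genes switched on there include its own partners. p53 is the tumour suppressor that halts or kills damaged cells, and the series title asks about p53 and cell growth.

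The residues named in the labels were located in the mouse reference transcript Cry2-201 of GENCODE M21 (Cry2, chr2:92403646-92434043 of GRCm38, minus strand). The stretches show which codons the constructs alter. The codon itself is in capitals, and the sequence is the reference, since the sources used here do not give that of the constructs. In it the S510L codon encodes serine and the F428D codon phenylalanine, the residues that the names give first.
S510L site in mouse Cry2: taccaacagctgTCGagataccgggga
F428D site in mouse Cry2: ttccaacaattcTTCcactgctactgc

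Values are TPM, in which abundances per transcript length sum to the same total in each library, and differences are S510L minus F428D in log2(TPM + 1) with the standard error. That scale understates changes of genes with low TPM. The depth behind a TPM is unknown. A gene was called when limma gave a Benjamini-Hochberg adjusted p under 0.05 among 14093 genes tested. The fit used all 30 libraries, and the main difference is the mean of those at low and high density. Of all tested genes 33.5% were called (4721), 25.5% higher in S510L cells (3593) and 8.00% lower (1128). The median difference over all genes was 0.11, and quantile normalization brought it to 0.01 and the higher share of the calls to 52.9%, against 76.1% as deposited. Median-ratio scaling gave 0.01 and 55.1%. The balance of calls thus depends on scaling, and list medians below are to be read against 0.11.

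The first principal component of the 12 libraries, with 39.2% of the variance, separated S510L (-48.1 to -12) from F428D (8.19 to 50.0). Among the F428D libraries 2 stood apart. The first low-density one was far out on the second component (58.9), and the second high-density one had 15910 genes above 0, against 18660 to 19254 in the other 11. Mitochondrial transcripts took 1.57% to 1.99% of TPM in S510L cells and 3.14% to 3.85% in F428D cells at low density, and 2.23% to 2.57% and 1.81% to 3.62% at high density. Fibroblast markers were abundant in both. The sum of 11 was 14659 to 15604 TPM in S510L and 10697 to 15917 TPM in F428D cells at low density. At high density it was 13434 to 14804 TPM and 10367 to 12214 TPM. All 11 were tested, and 8 were called higher and 1 lower on average (median 0.71), beside 25.5% and 8.00% of all genes. Within each density 5 were called higher and none lower. Of 12 macrophage markers 11 were under 1 TPM in all 12 libraries, with Adgre1 and Tyrobp at 0. Likewise 8 of 12 endothelial, 9 of 13 skeletal muscle and 7 of 12 epithelial markers stayed under 1 TPM. The summed epithelial markers were nevertheless lower in S510L than in F428D cells, 163 to 180 against 213 to 417 TPM at low and 225 to 249.7 against 389.8 to 467 TPM at high density. Yet of 5 tested epithelial markers 1 was called higher and none lower on average, beside 25.5% and 8.00% of all genes. Each density gave the same counts. The summed muscle markers were higher, 40.2 to 97.8 against 18.8 to 30.9 TPM at low and 26.5 to 44.0 against 12.3 to 19.3 TPM at high density. Acta1 made up much of the muscle sum at low density. The tested muscle markers split: of 4, 2 were called higher and 1 lower on average, and 1 each way at high density. The endothelial sums were 20.4 to 27.5 against 11.1 to 15.8 TPM and 23.1 to 30.3 against 12.5 to 22.6 TPM. The part of these markers in the results was not tested.

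Cry2 mRNA itself differed. S510L cells had 21.4, 27.5 and 13.2 TPM of Cry2 at low density, against 88.2, 99.6 and 125 TPM in F428D cells. At high density the S510L values were 23.0, 20.4 and 39.5 TPM and the F428D values 81.5, 58.5 and 76.7 TPM. No S510L library reached the lowest F428D library at either density, and all lay above the EV cells, whose means were 4.59 TPM at low and 4.43 TPM at high density. The averaged difference was -1.86 ± 0.24 (SE, limma adjusted p = 4.63e-06). WT cells averaged 75.5 and 72.3 TPM, near the F428D level. Reads of the introduced gene and of the disrupted endogenous gene cannot be told apart in these values, and the constructs thus differ in Cry2 mRNA level as well as in sequence.

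Cry1, the paralogous clock repressor, went the other way. Its level was 11.6, 10.5 and 9.43 TPM in S510L and 2.77, 5.22 and 1.83 TPM in F428D cells at low density. At high density it was 9.42, 9.80 and 8.53 TPM in S510L against 3.78, 3.72 and 3.16 TPM in F428D cells. The groups did not overlap, and F428D cells were the lowest of the 5 constructs at both densities, the EV means being 8.91 and 7.02 TPM and the WT means 7.81 and 6.09 TPM. The difference of 1.34 ± 0.12 was called at both densities (averaged adjusted p = 1.57e-07).

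Among repressors and outputs of the clock, more genes were called at low than at high density. A test of whether the difference changed between densities called none of them. Of 11 tested genes in the list of clock repressors and E-box outputs, 6 rose in S510L cells and none fell, beside 25.5% and 8.00% of all genes, and their median difference was 0.73. At low density 6 rose, with a median of 0.92 against 0.07 over all genes. At high density 3 rose, with a median of 0.19 against 0.16 over all genes. Bhlhe40, a repressor at E-boxes also known as DEC1, had 38.1, 42.4 and 24.8 TPM in S510L and 14.5, 13.7 and 11.3 TPM in F428D cells at low density (averaged difference 1.05 ± 0.15, adjusted p = 1.89e-05). Its relative Bhlhe41 had 16.5, 12.4 and 6.29 TPM in S510L against 1.12, 1.38 and 1.47 TPM in F428D cells at low density. At high density Bhlhe41 was at 2.90, 3.25 and 3.75 TPM in S510L and 1.31, 1.15 and 2.39 TPM in F428D cells, still apart but not called there. Ciart (CHRONO), a further repressor of CLOCK and BMAL1, rose by 0.79 ± 0.15 and Per1, a partner of the cryptochromes, by 0.73 ± 0.16. Dbp, a transcription factor driven directly by CLOCK and BMAL1, passed narrowly (0.74 ± 0.25, adjusted p = 0.0278). It lost the call in 5 of 12 fits that left out 1 library (adjusted p = 0.0573 to 0.105), and also with quantile normalization (0.0943), median-ratio scaling (0.0696), array weights (0.0729), no filter (0.057) and the 12 libraries alone (0.068). The 5 fits were those without S510L low 1, S510L high 3, F428D low 2, F428D low 3 or F428D high 2, with differences from 0.52 to 0.69. Per2 (0.21 ± 0.12) and Nr1d1, which encodes REV-ERB alpha (0.11 ± 0.23), did not pass. Clock, the activator, rose by 0.45 ± 0.08. In the list of clock activators 2 of 7 tested genes were called higher and none lower on average, a share near that of all genes. The median of that list was 0.03, and at low density 1 was called higher and 1 lower.

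Promoter sequences of this list were searched for CACGTG, the palindromic E-box, because its members are textbook E-box genes and several rose together. RefSeq promoter windows of GRCm38.p6, 250 bases before to 50 bases after each gene's start, were available for 10 of the genes, in 12 windows. CACGTG lay in 6 of these windows (50.0%), those of Bhlhe41, Ciart, Cry1, Per1 and Tef, and in 7.15% of all 32851 windows in the table. It also lay in 41.7% of 12 windows of p53 targets in cell death, most of which fell, and in 33.3% of 15 windows of the MYC network. Of the 5, Tef did not pass the test (-0.04 ± 0.16). The windows of Cry1 and Ciart are printed from 150 bases before the start up to the start, with each CACGTG in capitals. The Cry1 copy begins 60 bases before the start and the Ciart copies 116, 58 and 44 bases before it. The clock list was chosen as E-box genes, so its high share follows from that choice and was no test of the rise. A match is a run of letters and not evidence of binding.
Cry1, chr10:85185055-85185204, minus strand: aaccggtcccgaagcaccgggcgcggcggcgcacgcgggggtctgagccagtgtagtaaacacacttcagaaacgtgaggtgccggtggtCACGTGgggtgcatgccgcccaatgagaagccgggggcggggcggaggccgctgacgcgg
Ciart, chr3:95882229-95882378, minus strand: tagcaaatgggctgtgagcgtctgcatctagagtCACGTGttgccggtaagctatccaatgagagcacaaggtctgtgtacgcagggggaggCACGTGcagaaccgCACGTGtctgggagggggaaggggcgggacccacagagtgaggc

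Trp53, the gene of p53 (chr11:69580359-69591873, plus strand, GRCm38), was lower in every S510L library than in every F428D library. S510L cells had 54.6, 24.7 and 80.3 TPM at low and 111, 86.9 and 73.2 TPM at high density. F428D cells had 214, 278 and 326 TPM at low and 293, 253 and 270.0 TPM at high density, close to the means of WT (281 and 266 TPM) and EV cells (259 and 263 TPM). The averaged difference was -2.03 ± 0.37 (adjusted p = 0.000213). Low density gave -2.47 (adjusted p = 0.00186). High density gave -1.60, with an adjusted p of 0.0367. The high-density call was lost when any of its 6 libraries was left out (adjusted p = 0.0581 to 0.109), with differences from -1.755 to -1.46.

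The genes around Trp53 were looked at next. Within 100 kb of Trp53 there were 12 other tested genes, with a median difference of 0.03 and none called lower. Atp1b2, a subunit of the sodium pump, was the 1 called higher (1.37 ± 0.37, adjusted p = 0.00607). Wrap53 lies on the other strand, next to the start of Trp53 without overlapping it in this annotation. It differed by 0.12 ± 0.11 and the translation factor gene Eif4a1 by -0.05 ± 0.07. The Trp53 promoter is printed because it holds a CACGTG, in capitals, 11 bases after the start, and the window ends 30 bases after it.
Trp53, chr11:69580209-69580388, plus strand: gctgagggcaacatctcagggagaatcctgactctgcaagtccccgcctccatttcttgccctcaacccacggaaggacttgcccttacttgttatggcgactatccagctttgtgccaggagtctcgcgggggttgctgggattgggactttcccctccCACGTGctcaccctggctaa

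Of 5 genes in the core of the p53 pathway 3 fell and 1 rose on average, beside 8.00% and 25.5% of all genes. At high density Trp53 was the 1 gene called. Mdm2, the ligase that degrades p53 and is itself a p53 target, had 66.4, 40.6 and 55.8 TPM in S510L and 96.6, 141 and 131 TPM in F428D cells at low density (averaged difference -0.94 ± 0.22, adjusted p = 0.00215). At high density Mdm2 had 69.2, 77.9 and 47.0 TPM against 104, 102 and 105 TPM, apart but not called (-0.70, adjusted p = 0.121). Ccng1, cyclin G1, another p53 target, fell by 1.36 on the log2 scale on average (SE 0.28, adjusted p = 0.000728) and was not called at high density (adjusted p = 0.0627). Mdm4, which inhibits p53, did not pass (-0.24 ± 0.15). Cdkn2a, which encodes p16INK4A and the MDM2 inhibitor p19ARF, rose by 1.02 ± 0.20 (adjusted p = 0.000484). Its values were 687, 664 and 523 TPM in S510L against 398, 211 and 156 TPM in F428D cells at low density. At high density they were 397, 411 and 558 TPM against 339, 245 and 284 TPM, apart but not called (0.65, adjusted p = 0.118). Transcripts for p16INK4A and p19ARF are not separated in a per-gene table.

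**Figure D1:**
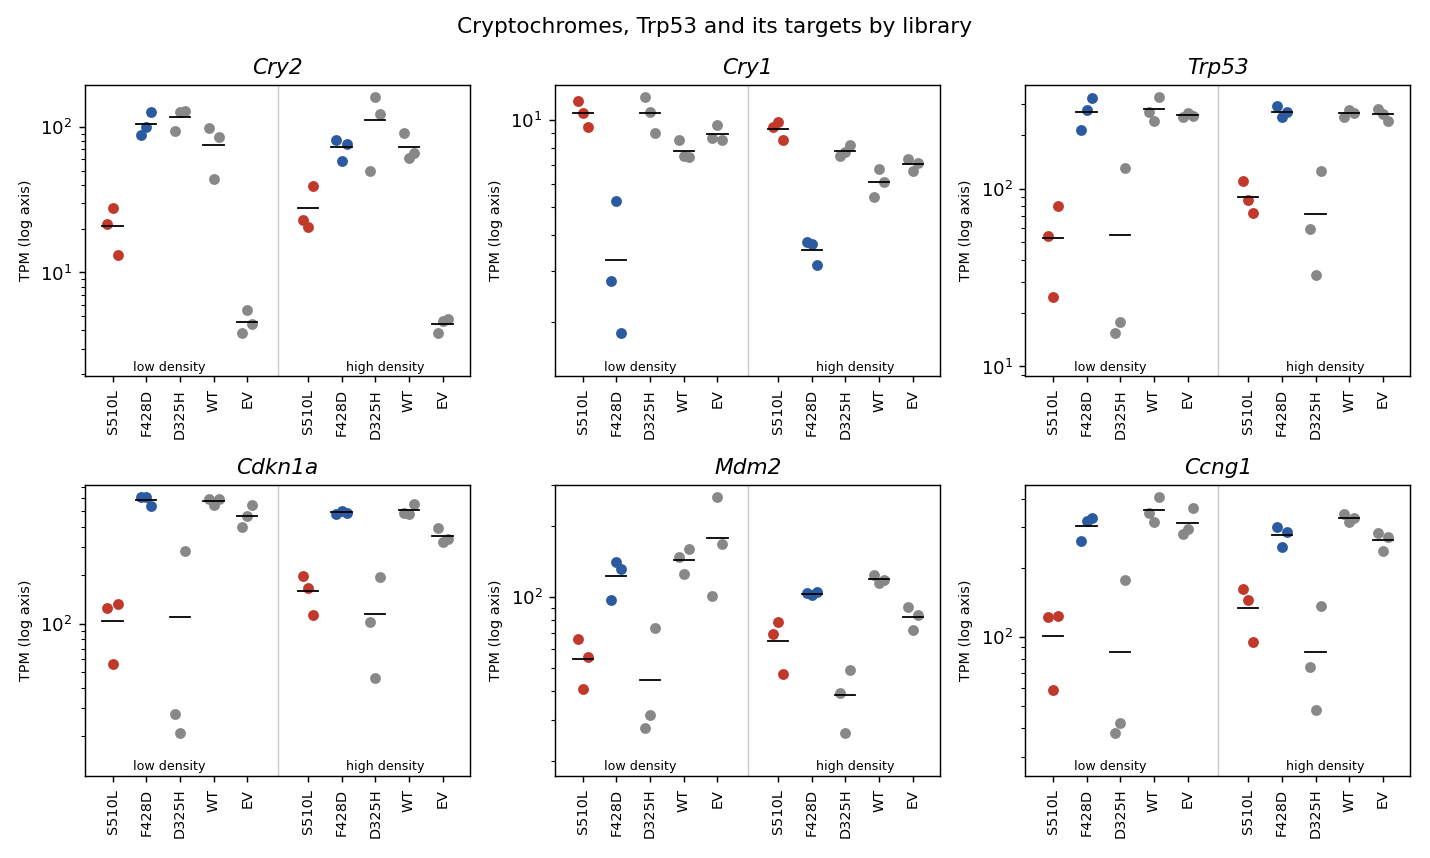
TPM on a log axis for Cry2, Cry1, Trp53, Cdkn1a, Mdm2 and Ccng1 in every library, with low density left and high density right of the grey line in each panel. Points are libraries and bars means of 3; S510L is red, F428D blue and the other constructs grey, and the S510L points lie below all F428D points for each gene but Cry1, where they lie above.

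Among p53 targets of growth arrest and senescence, 6 of 10 tested fell in S510L cells and none rose, with a median difference of -1.23. Over all genes 8.00% were called lower and 25.5% higher. Cdkn1a, which encodes the cyclin-dependent kinase inhibitor p21, had 125, 56.1 and 132 TPM in S510L against 614, 615 and 534 TPM in F428D cells at low density. At high density S510L cells had 198, 167 and 113 TPM and F428D cells 479, 504 and 489.6 TPM. The groups lay far apart at both densities, although at high density the call was just missed (-1.65, adjusted p = 0.0525; averaged -2.11 ± 0.41, adjusted p = 0.000434). Phlda3, an inhibitor of AKT signalling, fell by 1.36, Btg2, an antiproliferative factor, by 1.18, Zmat3 by 1.32 and Trp53inp1 by 1.48. Plk2, a polo-like kinase, stood at 0.49 ± 0.21 and did not pass.

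Of the targets in cell death, 8 of 10 fell and none rose (median -1.09), beside 8.00% and 25.5% of all genes. Bbc3, the gene of PUMA, which triggers mitochondrial apoptosis, was called at both densities. It had 36.8, 23.7 and 32.8 TPM in S510L and 57.4, 64.4 and 52.2 TPM in F428D cells at low density, and 35.3, 28.3 and 29.5 TPM against 76.4, 67.5 and 72.0 TPM at high density (averaged -1.04 ± 0.13, adjusted p = 3.93e-06). Bax, the pore-forming effector, had a difference of -1.19 ± 0.19 and was also called at both densities. Pidd1, Perp and the death receptor gene Eda2r had averaged differences of -1.46, -1.73 and -1.67. The smallest called decrease was that of the TRAIL receptor gene Tnfrsf10b, at -0.39.

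Targets in repair and metabolism split: 8 of 12 fell and 2 rose (median -0.50), beside 8.00% and 25.5% of all genes. Ak1, adenylate kinase, fell by 1.68 and Dglucy, D-glutamate cyclase, by 2.01. Sestrins, which restrain mTORC1, went both ways. Sesn2 had 20.4, 13.6 and 30.7 TPM in S510L and 49.7, 54.0 and 43.8 TPM in F428D cells at low density (averaged -1.12 ± 0.19). Sesn1 had 19.4, 19.2 and 16.4 TPM in S510L against 12.4, 10.2 and 10.9 TPM in F428D cells at low density (averaged 0.62 ± 0.09, adjusted p = 1.15e-05). Ddb2, a DNA damage sensor, also rose (0.57 ± 0.13).

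The consensus decamer of a p53 half-site was looked for in the same promoter table, on both strands at once since it is palindromic. A pair of half-sites at most 13 bases apart lay in 24 of 32851 windows (0.0731%). Of the 30 genes of the p53 lists with a window, Cdkn1a alone held a pair, in the window of the more upstream of its 2 starts. The half-sites, in capitals, begin 73 and 51 bases before that start. Single half-sites were in 27.9% of the windows of these genes and in 8.36% of all windows. These lists were chosen as p53 genes, so a high share can follow from that choice and was no test of the fall.
Cdkn1a, chr17:29090829-29090978, plus strand: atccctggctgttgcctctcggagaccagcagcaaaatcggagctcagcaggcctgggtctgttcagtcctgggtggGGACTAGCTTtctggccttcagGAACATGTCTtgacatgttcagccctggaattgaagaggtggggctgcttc

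Many of the largest differences were in genes of cartilage matrix. Cartilage is built on a type II collagen fibril with collagens IX and XI, filled with the proteoglycan aggrecan and laid down under the transcription factors SOX9, SOX5 and SOX6. Of 18 tested genes in the cartilage list 17 rose in S510L cells and 1 fell, beside 25.5% and 8.00% of all genes. Their median was 3.56, and every gene's S510L libraries were separate from its F428D libraries at both densities. Over all tested genes 12.6% were separate upward and 3.81% downward at both densities.

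Matn1, matrilin 1 (chr4:130944385-130955475), had 186, 215 and 185 TPM in S510L against 10.1, 0.906 and 2.16 TPM in F428D cells at low density. At high density it had 46.8, 12.0 and 55.3 TPM in S510L, while F428D libraries had 0.675 and 0.740 TPM and 1 was listed at 0 (averaged 5.05 ± 0.47, adjusted p = 1.73e-07). The lowest S510L library thus lay above the highest F428D library even across densities. Acan, the aggrecan core protein, had 191, 386 and 459.7 TPM in S510L and 54.3, 15.1 and 45.6 TPM in F428D cells at low density, and 173, 123 and 126 TPM against 3.46, 2.19 and 4.26 TPM at high density (averaged 4.14 ± 0.50). Col9a1, a chain of collagen IX, rose by 4.79 ± 0.62. Other chains and matrix proteins ranged from Snorc (4.69) and the chondromodulin gene Cnmd (4.34) to Comp (2.79) and Col11a1 (2.27).

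Col2a1, the main collagen, was the most abundant of the list in TPM. It stood at 3633, 3878 and 3596 TPM in S510L and 1112, 783 and 1021 TPM in F428D cells at low density, and at 1781, 1156 and 1566 TPM against 317, 402 and 249 TPM at high density (averaged 2.08 ± 0.23, adjusted p = 6.86e-07). The regulators rose less: Sox6 by 1.58, Sox9 by 1.10 and Sox5 by 0.74. Col10a1, the collagen of hypertrophic cartilage, was the gene that fell (-1.61 ± 0.45, adjusted p = 0.00866). It had 9.54, 5.21 and 5.69 TPM in S510L against 17.4, 51.5 and 47.6 TPM in F428D cells at low density, and was not called at high density.

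Levels also moved with density and between F428D libraries. The summed TPM of the cartilage list was 7782 to 8744 in S510L and 1224 to 2296 in F428D cells at low density, and 2204 to 3488 against 506 to 593 at high density. Both constructs were lower at high density, which was also the earlier harvest. The first F428D library at low density was the highest of its group for 17 of the 18 genes, such as Col9a1 with 48.5 TPM against 2.65 and 8.67 TPM in its mates. EV cells too expressed Col9a1 at low density (mean 61.2 TPM), while WT cells averaged 1.08 TPM. Fewer cells of a kind and less RNA per cell cannot be told apart in such bulk samples. Leaving out the first low-density and the second high-density F428D library together kept 17 higher and 1 lower.

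**Figure D2:**
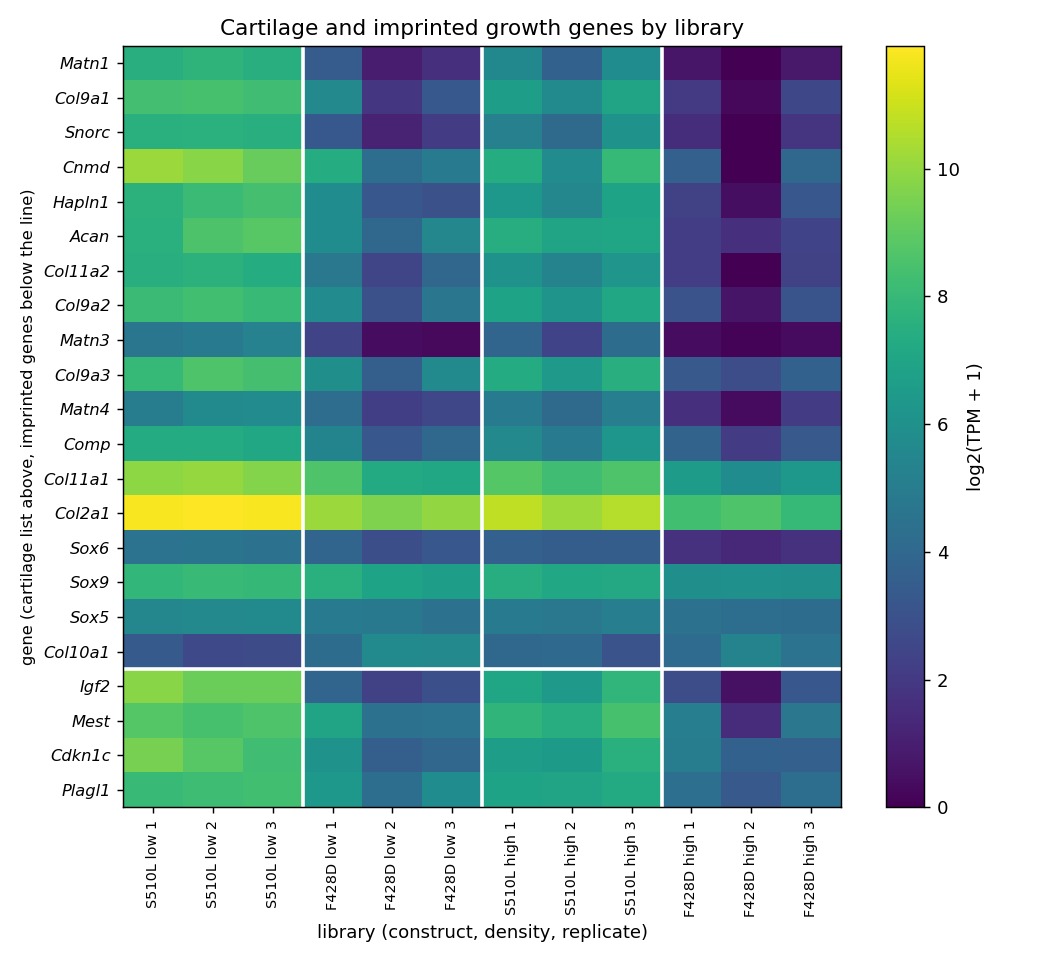
Colour shows log2(TPM + 1) of the 18 tested cartilage genes and, below the white line, of 4 imprinted growth genes in the 12 libraries, ordered within the cartilage list by the averaged difference. S510L columns are brighter than F428D columns of the same density in every row but Col10a1.

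Imprinted growth genes, which are expressed from 1 parental allele and steer fetal growth, held the largest averaged difference of all tested genes. Igf2, insulin-like growth factor 2 (chr7:142650766-142666816, minus strand), had 905, 596 and 606 TPM in S510L against 13.9, 3.89 and 6.44 TPM in F428D cells at low density. At high density it had 128, 84.2 and 229 TPM in S510L and 6.16, 0.441 and 8.50 TPM in F428D cells (averaged 5.64 ± 0.52, adjusted p = 1.57e-07). Of 13 tested genes of the list 9 rose and none fell (median 0.67), beside 25.5% and 8.00% of all genes. Mest rose by 3.71 ± 0.53, Cdkn1c, which encodes the kinase inhibitor p57, by 3.54 ± 0.39, Plagl1, a zinc-finger factor, by 2.88 ± 0.35 and the receptor adaptor Grb10 by 0.98 ± 0.10. Peg3 (0.61 ± 0.76) and Ndn (-0.09 ± 0.32) did not pass. D325H cells also had a high Igf2 level, with means of 991 and 196 TPM, while WT cells averaged 12.1 and 14.2 TPM and EV cells 57.6 and 20.0 TPM.

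Downstream of IGF2, Irs1, the adaptor of the insulin and IGF receptors, had 40.1, 45.9 and 42.6 TPM in S510L and 28.3, 8.40 and 5.71 TPM in F428D cells at low density (averaged 2.02 ± 0.30, adjusted p = 2.23e-05). Igf1r, the receptor, rose by 0.55 ± 0.12. Igfbp6, a binding protein that prefers IGF2, fell by 2.22 (SE 0.55, adjusted p = 0.00332). Of 11 genes of the IGF axis 3 rose and 1 fell, a share near that of all genes.

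Extracellular antagonists of BMP and WNT signals moved both ways, 5 of 13 up and 2 down on average, beside 25.5% and 8.00% of all genes. Frzb, a WNT antagonist first found in cartilage, had 68.2, 82.2 and 68.1 TPM in S510L against 5.87, 0.849 and 0.523 TPM in F428D cells at low density (averaged 4.01 ± 0.40). The BMP antagonist Grem1 had 155, 166 and 76.1 TPM in S510L and 6.44, 1.99 and 10.7 TPM in F428D cells at low density. At high density Grem1 had 16.6, 11.0 and 25.7 TPM against 5.77, 2.67 and 5.91 TPM (averaged 2.99 ± 0.36). Nog, noggin, rose by 1.84 and Chrdl1, a chordin relative, by 2.03. Fst, follistatin, fell by 1.20 and Wif1, a secreted WNT inhibitor, by 1.17. Of 24 general matrix genes 11 rose and 1 fell on average, and at high density 3 of 24 rose, a share below the 15.1% of all genes. Those that rose on average included Postn, periostin (3.00 ± 0.42), and Lum, lumican (2.43 ± 0.44).

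HOX genes, which record position along the body axis, differed by cluster. Of 24 tested HOX genes 10 rose and 3 fell (7 and 1 among those with a mean of at least 5 TPM). Over all genes 25.5% were called higher and 8.00% lower. All 8 tested genes from Hoxb2 to Hoxb9 (chr11, starts 96271457 to 96350525) rose, by 0.98 to 2.69. Hoxb8 had 28.8, 32.1 and 27.1 TPM in S510L against 0.632, 2.29 and 8.19 TPM in F428D cells at low density, and 20.5, 31.8 and 28.1 TPM against 9.58, 1.29 and 5.60 TPM at high density (averaged 2.69 ± 0.37, adjusted p = 9.37e-06). Relative to its mean, the level thus varied more between F428D than between S510L libraries. Hoxa11, of the limb, fell by 1.22 (SE 0.21), with 0.635, 0.276 and 0.434 TPM in S510L and 5.83, 2.96 and 3.04 TPM in F428D cells at low density. Pdgfra, the PDGF receptor of mesenchymal cells, rose by 2.36 ± 0.42.

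Genes of sterol synthesis rose together by smaller steps. These enzymes are driven by SREBP2 when cells lack sterol. Of 21 genes 16 rose and none fell (median 0.61), beside 25.5% and 8.00% of all genes. Srebf2, the gene of SREBP2, had 140.3, 147 and 128 TPM in S510L and 74.4, 96.7 and 92.6 TPM in F428D cells at low density, and 101, 113 and 105 TPM against 72.3, 71.7 and 69.5 TPM at high density (averaged 0.61 ± 0.07, adjusted p = 1.03e-06). Insig1, the feedback sensor, rose by 1.12 ± 0.14 and Hmgcs1, an early enzyme, by 0.88 ± 0.12. Of 22 hypoxia and glycolysis genes 10 were higher and none lower on average, beside 25.5% and 8.00% of all genes. Their median was 0.22, against 0.11 over all genes. At high density 4 of the 22 were called higher, beside 15.1% of all genes. Egln3, a prolyl hydroxylase induced by HIF, had 61.5, 90.5 and 68.7 TPM in S510L against 14.3, 11.3 and 19.7 TPM in F428D cells at low density (averaged 1.85 ± 0.21). The glucose transporter gene Slc2a1 rose by 0.67 ± 0.09, while Vegfa (0.13 ± 0.11) did not pass.

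Proliferation genes were less firm. Of 22 genes of G2 and mitosis 15 rose and none fell (median 0.64). Of 28 genes of S phase 11 rose and 1 fell (median 0.46). Over all genes 25.5% were called higher and 8.00% lower. Top2a, topoisomerase II alpha, had 174, 191 and 159 TPM in S510L and 97.7, 94.9 and 103 TPM in F428D cells at high density (averaged 0.75 ± 0.21, adjusted p = 0.00751). The counts shrank with the settings: quantile normalization left 5 mitotic genes higher, median-ratio scaling 8, the 12 libraries alone 5, and the fit without the 2 outlying F428D libraries 4. Without the first low-density F428D library the count was 7, and without the third S510L low-density library 8. For S phase, 5 rose and 1 fell without either of those libraries or without the second S510L high-density library.

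The difference in Myc mRNA did not pass the test (0.13 ± 0.24, adjusted p = 0.722). S510L cells had 33.4, 45.1 and 36.0 TPM and F428D cells 20.8, 33.0 and 45.5 TPM at low density, and 27.6, 57.4 and 34.7 TPM against 58.8, 35.1 and 26.6 TPM at high density, so the groups overlapped. Of 25 MYC targets in ribosome and nucleotide synthesis 2 rose and none fell, a share below that of all genes. Within the MYC network Mycl, a MYC paralogue, rose by 0.91 ± 0.14 and Mxd3, a MAX partner, by 1.06 ± 0.18.

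**Figure D3:**
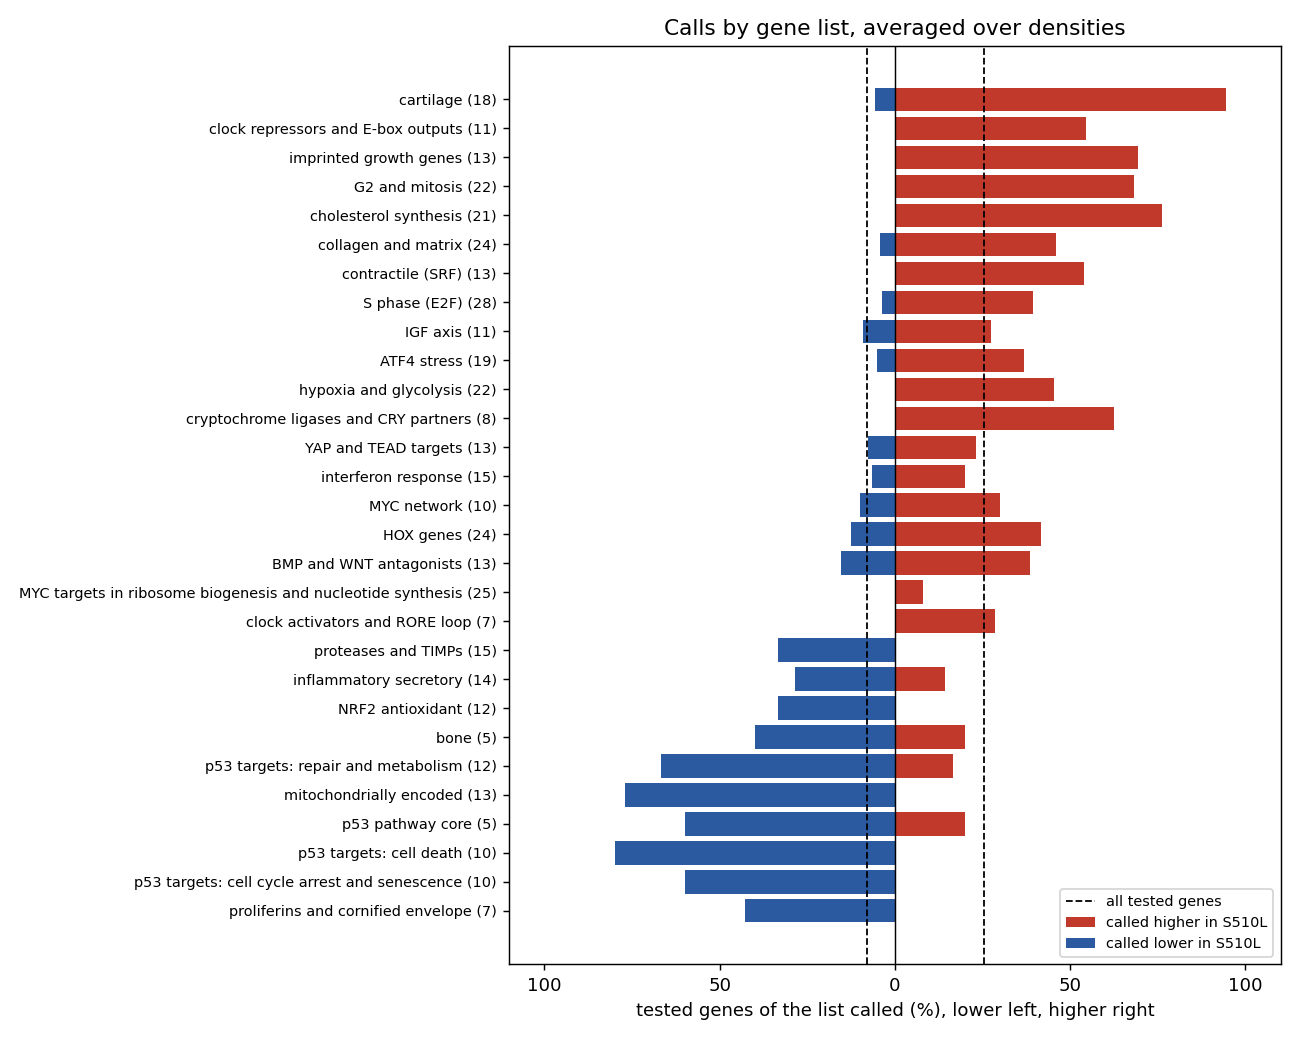
Share of each list's tested genes called lower (blue, left) and higher (red, right) in S510L than in F428D cells, averaged over densities, with the number tested in brackets and lists ordered by median difference. Dashed lines mark 8.00% and 25.5% of all tested genes; cartilage reaches 17 of 18 on the right and p53 death targets 8 of 10 on the left.

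Of the genes called lower in S510L cells, 204 of 1128 differed by at least 1 log2 unit, and some outside the p53 lists follow. Cox6b2, a testis form of a cytochrome c oxidase subunit, had 10.5, 3.72 and 15.6 TPM in S510L against 110.2, 55.9 and 33.1 TPM in F428D cells at low density, and 15.2, 15.6 and 11.0 TPM against 87.1, 76.3 and 84.3 TPM at high density (averaged -2.57 ± 0.31, adjusted p = 2.28e-06). Serpine2, a protease inhibitor, fell by 1.85 (SE 0.36) and Timp1, an inhibitor of metalloproteinases, by 0.92 (SE 0.12). Alpl, alkaline phosphatase, an early bone marker, fell by 1.90 (SE 0.37), whereas Runx2, the regulator of bone formation, rose by 0.40 ± 0.08. Antioxidant genes under NRF2 fell in 4 of 12 cases and rose in none on average (median -0.19), beside 8.00% and 25.5% of all genes. At low density 2 of the 12 were called lower and at high density 1, beside 6.73% and 2.33% of all genes. Gclc, the rate-limiting enzyme of glutathione synthesis, stood at -1.44 ± 0.35, Hmox1, heme oxygenase, at -0.74 ± 0.17, and Nqo1 at -0.06 ± 0.29, which did not pass. The chemokine gene Cxcl1 fell by 1.85 (SE 0.49), although at low density the groups overlapped, with 5.14, 7.05 and 11.6 TPM in S510L and 114, 27.1 and 6.45 TPM in F428D cells. Small proline-rich genes share sequence, so their values are less certain. Sprr1a stood at -2.35 ± 0.71 (adjusted p = 0.0132).

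Signs mostly matched between the 2 densities, while fewer genes were called lower at high density. At low density 20.8% of the tested genes were called (2934), 14.1% higher and 6.73% lower, and at high density 17.4% (2458), 15.1% higher and 2.33% lower. Both densities called 1191 genes, 40.6% of the low and 48.5% of the high calls, and 1186 of them had the same sign. Of the low-density calls 92.4% had the same sign at high density, and of the high-density calls 93.4% at low density. These are separate libraries, so the comparisons share no sample. Cartilage genes were called 17 up and 1 down at low and 17 up and none down at high density. Death targets of p53 were called 8 down at low and 4 down at high density, and arrest targets 5 and 2 down. Sterol genes were called 15 up at low and 12 up at high density, imprinted genes 8 and 5 up, and hypoxia and glycolysis genes 9 and 4 up. Of the mitotic genes 3 were called up at low and 2 at high density, so most of their calls arose in the average alone.

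**Figure D4:**
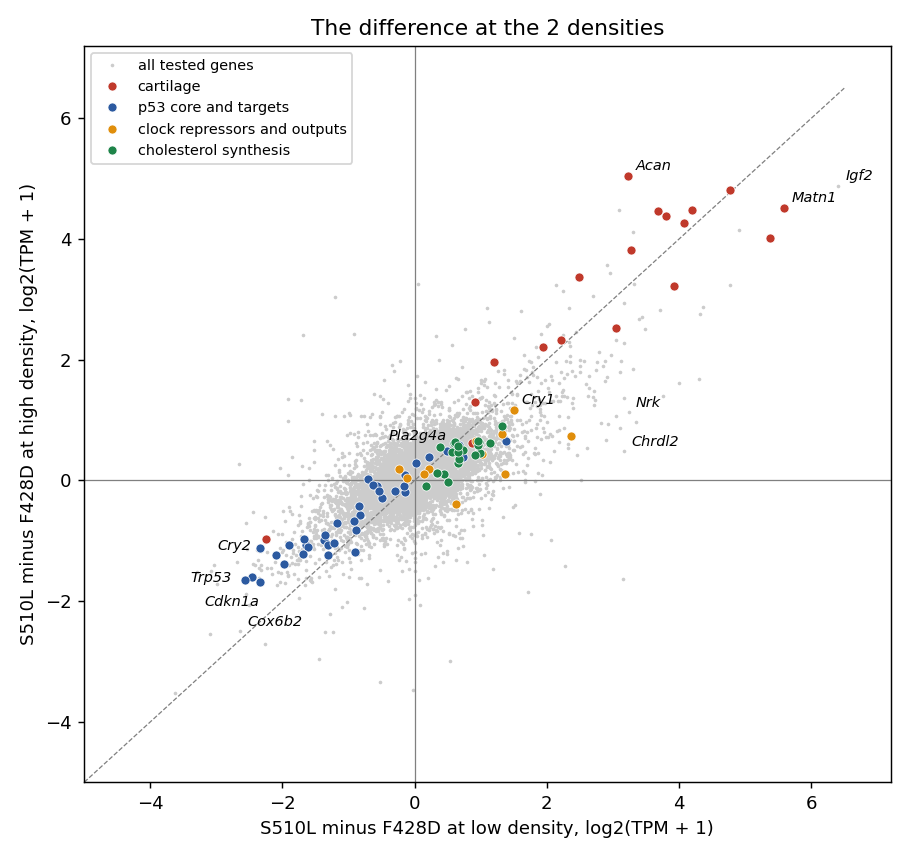
Each point is a gene, with its S510L minus F428D difference in log2(TPM + 1) at low density on the horizontal and at high density on the vertical axis; the dashed line marks equal differences. Cartilage genes (red) other than Col10a1 lie at the upper right and p53 genes (blue) mostly at the lower left, nearer to 0 at high density.

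A test of the change between densities called 3 genes (0.0213% of those tested), 1 with a positive (0.00710%) and 2 with a negative change (0.0142%), with 1505 at an unadjusted p under 0.05. Chrdl2, a chordin relative, had 14.4, 14.2 and 4.18 TPM in S510L and 0.200, 0.182 and 0.175 TPM in F428D cells at low density. At high density Chrdl2 had 0.421, 0.217 and 0.827 TPM in S510L, against 0.0459 and 0.0949 TPM in F428D libraries and 1 listed at 0. Nrk, a kinase gene, likewise had 14.7, 11.2 and 5.99 TPM in S510L against 0.423, 0.0611 and 0.0426 TPM in F428D cells at low density and 1.47, 1.03 and 1.78 TPM against at most 0.185 TPM at high density. Pla2g4a, cytosolic phospholipase A2, which frees arachidonic acid, changed direction. It had 32.1, 33.8 and 31.7 TPM in S510L and 43.6, 44.0 and 52.9 TPM in F428D cells at low density, but 38.1, 38.7 and 37.4 TPM against 21.2, 30.6 and 24.1 TPM at high density.

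Differences were also summarised by chromosome, a view chosen after the data were seen and given without a test. Symbols were placed with GENCODE M21. The 762 tested genes of chromosome 8 had a median difference of -0.12, against 0.12 over the 13079 genes of the other chromosomes, and each other chromosome had a median from 0.07 to 0.16. On chromosome 8 20.9% of the genes were called lower and 6.17% higher, whereas on every other chromosome 9.50% or fewer were lower. Within each library the median centred level of chromosome 8 was set against that of the other chromosomes. It was -0.11, -0.15 and -0.15 in S510L against 0.26, 0.29 and -0.01 in F428D libraries at low density, and -0.05, -0.08 and -0.12 against -0.03, 0.24 and 0.13 at high density. All F428D libraries thus lay above the S510L libraries of their density, the third at low and the first at high density by the least. For all other chromosomes these values ran from -0.09 to 0.07 in the 12 libraries. Libraries of the other constructs varied as well. D325H had -0.14, -0.15 and 0.10 at low and -0.09, -0.14 and -0.10 at high density, WT 0.24, 0.30 and -0.04 at low and 0.10, -0.03 and 0.11 at high density, and EV 0.14, -0.09 and -0.0017 at low and -0.09, -0.12 and -0.12 at high density. Hmox1, Comp and Nqo1 lie on this chromosome. The part of chromosome 8 in other results was not tested.

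**Figure D5:**
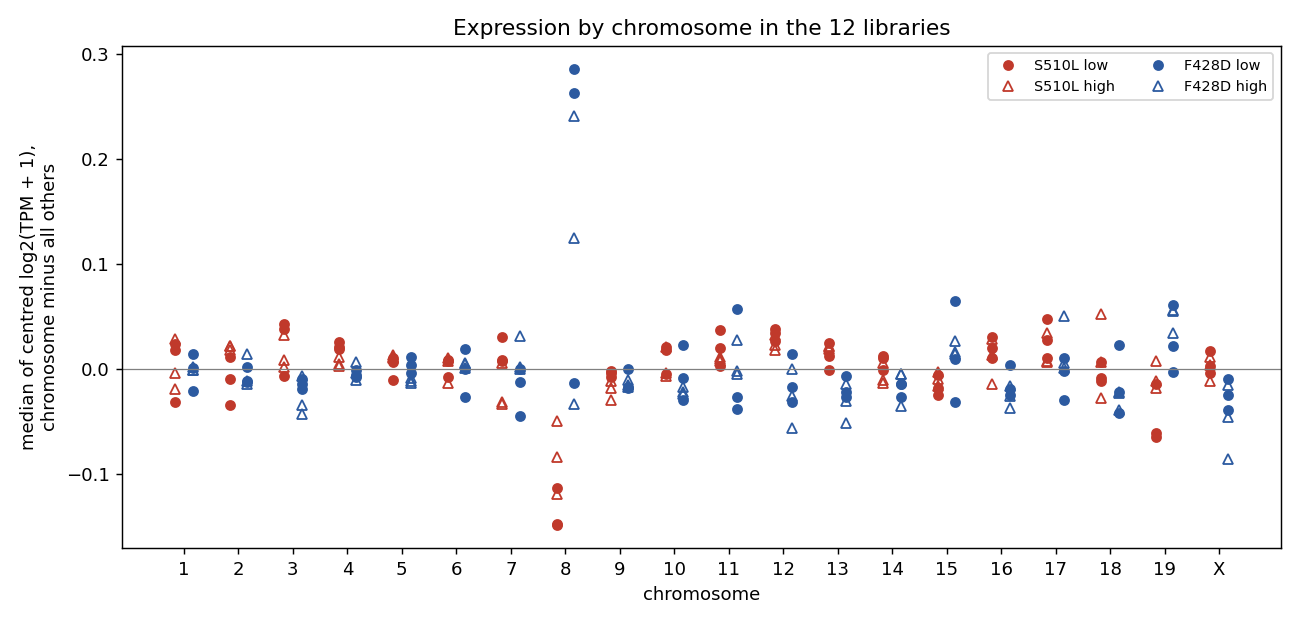
For each chromosome, the median over its tested genes of log2(TPM + 1) centred on the mean of 30 libraries, minus the median over all other chromosomes, in the 12 libraries (S510L red, F428D blue, low density filled, high density open). Chromosome 8 is the one where libraries spread from -0.15 to 0.29.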

How the data were processed

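The authors deposited 1 table of TPM for 34724 gene symbols in 30 libraries, single-end reads of 50 nt from a BGISEQ-500, per the labels' protocols. The tool kallisto and the build GRCh37.p13, a human assembly, are named in the submitters' processing notes, whereas the symbols are those of mouse genes. The transcript set is not given in the sources used here. Columns were matched to samples by the number opening each title. TPM keeps no depth, so precision rests on replicates.

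From these values log2(TPM + 1) was taken for 14093 genes that reached 1 TPM in 3 or more libraries. Means of the 10 groups were fitted together in limma 3.58.1 (R 4.3.3), with a variance trend and Benjamini-Hochberg adjustment. The fit was tested on simulated data. Genes named by rule are 10 fixed ones, the 15 highest and lowest averaged differences with mean log2 of at least 2, 5 each within a density, and 4 per list. The highest and lowest also had to be called, with libraries that did not overlap. Not all genes of the rule are printed, and other list members, such as Per1, Mdm4, Comp and Vegfa, are printed outside it. The gene lists and members were chosen with earlier results of these data known. Some listed symbols, such as H19 and Fas, were not analysed here. Alternatives were other pseudocounts, filters, scalings, weights, libraries and a replicate block. Promoters are from RefSeq (GRCm38.p6). matplotlib 3.10.9 drew the plots.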

Additional observations from a re-analysis of the deposited data

Results flagged for a closer look

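The test of the difference between densities called 3 genes, listed here because S510L minus F428D was not the same at the 2 densities. For Chrdl2 the difference at high density minus that at low density was -2.68 in log2(TPM + 1) (limma adjusted p = 0.00286), from 3.17 at low and 0.49 at high density, and S510L was the higher construct in 3 of 3 libraries at both. For Nrk it was -2.11 (adjusted p = 0.0175), with 3.24 at low and 1.13 at high density. For Pla2g4a it was 1.10 (adjusted p = 0.0237), with -0.51 at low and 0.59 at high density, and the libraries of the constructs did not overlap at either. Chrdl2 was called in all 12 fits that left out 1 library. Nrk and Pla2g4a each lost the call in 8 of them. None of the 3 was called with a pseudocount of 0.1 (adjusted p = 0.238, 0.334 and 0.0719 for Chrdl2, Nrk and Pla2g4a) or in a fit of the 12 libraries alone (0.336, 0.326 and 0.326). The call of Pla2g4a was also lost with quantile normalization (0.0549) and median-ratio scaling (0.067).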

How the results depend on the processing

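The averaged count of 4721 stayed within 1.5 times under every setting run, between 3938 and 5125 with 1 library left out. At high density, 2458 calls became 1386 with quantile normalization (57.5% higher, against 86.7%), 1497 with median-ratio scaling (55.8%), 6342 with array weights, 1300 with only the 12 libraries, and 1515 without the 2 outlying F428D libraries, a setting chosen after seeing the data. With 1 library left out it ran from 1070 to 2967. The lowest values were 1070 without S510L high 2, 1123 without F428D high 2 and 1546 without S510L high 1. At low density, 2934 became 1144 with array weights, and 1712 to 3336 with 1 library left out, falling to 1712 without S510L low 2, 1895 without S510L low 1 and 1950 without F428D low 2. Its share of higher calls was 50.8% with quantile normalization and 54.0% with median-ratio scaling, against 67.7%. The density difference, 3 genes, gave 0 with a pseudocount of 0.1, 9 with 5, 15 without a filter, 1 with a mean TPM of at least 5, 5 without a variance trend, 0 with the 12 libraries, 11 without the 2 outlying libraries and 1 to 11 with 1 library left out. Fewer libraries entered the smaller fits, and otherwise the cause was not tested. With density as an additive term, the 12 libraries called 3719 genes.

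Same-numbered libraries of the constructs had residual correlations from -0.03 to 0.21. The same-numbered F428D library was the best match of S510L low 1, low 3 and high 2. So few correlations cannot settle whether the numbers pair samples. A replicate block gave 4863, 2999 and 2554 calls (averaged, low, high) and 5 for the density difference. Among the genes named by rule, signs changed for averages that had not been called. Nr1d1 was -0.023 and Pla2g4a -0.081 with quantile normalization, Pla2g4a -0.069 with median-ratio scaling, and Myc -0.045 without the 2 outlying libraries. With 1 library left out, Nr1d1 ran from -0.19 to 0.40, Myc from -0.016 to 0.28 and Pla2g4a from -0.017 to 0.11. List medians that changed sign with scaling were those of HOX genes, BMP and WNT antagonists, the MYC network, MYC targets and clock activators. Depth is unknown, so genes under 1 TPM are the least certain.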

Other observations

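Further gene groups moved without being described above. Contractile genes under SRF rose in 7 of 13 cases and fell in none on average (median 0.52), beside 25.5% and 8.00% of all genes. Of these 13, 5 were called higher at low and 2 at high density, beside 14.1% and 15.1% of all genes. The share at high density was thus near that of all genes. Acta1, skeletal alpha actin, whose gene lies on chromosome 8, had 78.4, 60.2 and 32.1 TPM in S510L and 24.5, 18.0 and 14.7 TPM in F428D cells at low density (averaged 1.37 ± 0.24, limma adjusted p = 0.000156). Genes of the ATF4 stress response rose in 7 of 19 cases and fell in 1 on average, beside 25.5% and 8.00% of all genes. Trib3, a pseudokinase of that response, had 12.9, 15.3 and 15.3 TPM in S510L against 5.47, 6.26 and 6.69 TPM in F428D cells at low density, and 20.0, 19.6 and 11.7 TPM against 6.70, 6.75 and 5.20 TPM at high density (averaged 1.21 ± 0.15, adjusted p = 2.87e-06). Mitochondrially encoded transcripts fell in 10 of 13 cases on average and rose in none (median -0.59), beside 8.00% and 25.5% of all genes. At low density 9 were called lower (median -0.83) and at high density none was (median -0.20). The averaged count was 3 with array weights and 6 without the 2 outlying F428D libraries. It was also 6 without S510L low 1, F428D high 1 or F428D high 2.

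Single markers of other cell types differed too. Erg, an ETS factor used as an endothelial marker, had 4.24, 9.30 and 11.3 TPM in S510L against 2.70, 1.45 and 2.21 TPM in F428D cells at low density (averaged 1.93 ± 0.23, adjusted p = 1.41e-06), while the endothelial marker Emcn was at 0 in all 12 libraries. Of 3 tested endothelial markers 1 was called higher and none lower on average, and at low density 2 were called higher and 1 lower. The neuronal tubulin Tubb3, whose gene also lies on chromosome 8, fell by 1.48 (SE 0.45). The neural markers split, with 2 of 7 tested called higher and 2 lower on average (median 0.35). Of all genes 25.5% were called higher and 8.00% lower. The summed neural markers overlapped at low density, 42.8 to 68.4 TPM in S510L and 60.1 to 89.6 TPM in F428D cells.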
